A study of Bos taurus with 6 samples.

Results

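The 10 immediate early genes ARC, FOS, FOSB, FOSL1, JUN, JUNB, JUND, EGR1, EGR2 and EGR3 were followed in cultured cattle REPC, primary cells of the rumen epithelium, with and without butyrate. They were chosen by gene name, and each name was carried by a single row among the 32183 genes listed in the expression tables. The donor of these cells was 1 male Holstein, 2 weeks old and still on a liquid diet. Of 6 cultures, 3 received 5 mM butyrate and were harvested at 24 h, and 3 were controls. All cultures came from that animal, so the tests measure the spread between cultures and not between animals. The comparison asks whether ARC, which the study had already singled out from these libraries, moved together with the other genes of its class.

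Butyrate is a short-chain fatty acid of rumen fermentation and an inhibitor of histone deacetylases. H1F0, a linker histone gene that such inhibitors raise, had a mean FPKM of 4.87 ± 0.0425 in control and 33.5 ± 0.794 with butyrate (SD, 3 cultures each). The proliferation gene MKI67 went from 3.98 ± 0.244 to 0.107 ± 0.0769 and TOP2A from 23.1 ± 1.04 to 1.11 ± 0.0862 (SD, n = 3 in each group). CDKN1A, the cell cycle inhibitor p21, rose from 210 ± 2.93 to 284 ± 8.78. The summed FPKM of 12 epithelial markers was 7090 to 7400 in control, 10400 to 10900 after butyrate, and none of them was at 0. By the test given below, 8 of the 12 were called higher, KRT5 lower and 3 neither, beside 32.5% and 25.9% of all tested genes called higher and lower. The sum of 9 fibroblast markers was 1940 to 2000 in control, then 2810 to 3050. Most of it came from 3 collagen genes, COL1A1 at 1150 ± 34.9, COL1A2 at 459 ± 18.2 and COL3A1 at 313 ± 8.94 in control. The cultures thus carried collagen transcripts typical of mesenchymal cells as well. Of the 9 markers, LUM, PDGFRA and PDGFRB had a mean FPKM under 1. In such bulk RNA, a change in the number of cells of a type and a change in RNA per cell cannot be told apart. FPKM, the unit of all levels given here, is the number of sequenced fragments scaled to transcript length and library size.

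Immediate early genes are transcribed within minutes of a stimulus, because the factors that switch them on are already present in the cell. FOS and JUN proteins pair through leucine zippers into the dimeric factor AP-1, in which JUN proteins can pair with each other but FOS proteins need a JUN partner. The EGR proteins are zinc finger factors that bind GC-rich promoters. ARC differs from the rest: its product is no transcription factor but a cytosolic protein of retrotransposon Gag origin, best known from active neurons, where it promotes the removal of AMPA receptors from the synapse. These genes are usually studied in the first hour after a stimulus, whereas the cultures here were harvested at 24 h.

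The DNA elements that these proteins recognise, and the element through which serum response factor (SRF) switches many of them on, are shown to place the members in their families. They are the unambiguous stretches of the consensus letters in the study's motif table, written 5′ to 3′ with the core of each element in capitals.
AP-1 (FOS with JUN): TGACTCAtc
JunD: aTGACGTCAtc
Egr2 (shared by the EGR family): GCGTGGGCGg
CArG (bound by SRF): CCATATATGG
No promoter of a member was searched for them.

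After butyrate, 5 of the 9 tested members rose (ARC, EGR1, JUN, JUNB and JUND), FOSL1 fell, and FOS, FOSB and EGR2 were not called. EGR3 was below the mean FPKM of 0.1 that a gene needed to be tested. The called genes had a Benjamini-Hochberg adjusted p under 0.05 from limma, fitted to log2(FPKM + 0.1) of all 15813 tested genes. Calls were common in this comparison, since 32.5% of all tested genes were called higher and 25.9% lower. In the 5 genes that rose, all 3 butyrate values were above all 3 control values, and in FOSL1 they were all below, as was so for 36.1% and 28.9% of all tested genes. The median log2 fold change of the 9 members was 0.46, beside 0.10 for all tested genes. The study's thresholds are a log2 fold change beyond 2 together with a Bonferroni-adjusted p under 0.05. Applied here to the p of limma, they called FOSL1 as the single member, beside 3.97% of all tested genes in either direction. By them 2.46% of all tested genes were called higher and 1.51% lower. The study made its own calls with Cufflinks and gave ARC as an example of its upregulated genes. It also showed histone marks at ARC, with a shift from a bivalent to active promoter and transcript states. Its call of ARC differs from the one made here, where ARC passed the fold threshold at 2.95 but not the Bonferroni threshold. EGR2 and ARC passed the filter on low values mainly through the butyrate cultures, which favours a rise in them. The same holds for every tested gene named below with a control mean FPKM under 0.1.

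**Figure D1:**
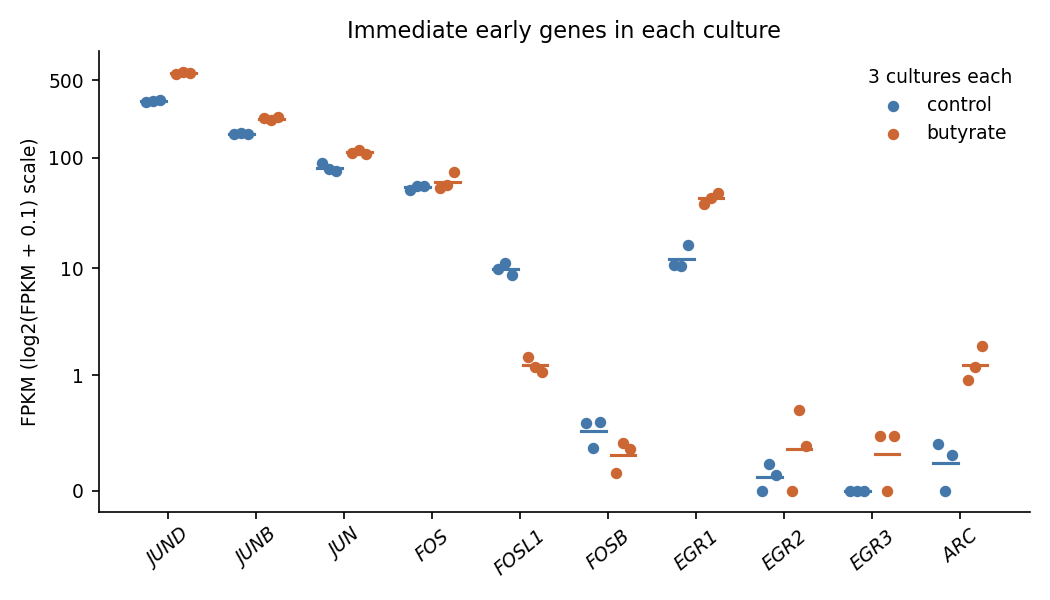
FPKM of each immediate early gene in 3 control and 3 butyrate cultures, on a log2(FPKM + 0.1) axis with ticks in FPKM; points are cultures and short lines are group means on that scale. JUND lies at the top in both groups, FOSL1 drops from about the level of EGR1 to about that of ARC, and EGR2, EGR3 and FOSB stay under an FPKM of 0.5.

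The 3 JUN genes were the most abundant members and all of them rose. JUND, whose protein is the JUN family member usually linked with resting cells, was at an FPKM of 321, 324 and 330 in control cultures 1 to 3 and at 564, 596 and 582 in butyrate cultures 1 to 3. The groups lay far apart relative to the small spread within each. The means were 325 ± 4.52 and 581 ± 16.2 (SD, n = 3), which is 1.79-fold higher after butyrate, and the log2 fold change reached 0.84 ± 0.04 (SE), at a Benjamini-Hochberg adjusted p of 3.8e-07 by limma. JUND also had a Bonferroni-adjusted p of 1.2e-04 from limma, but its change was smaller than the study's fold threshold.

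JUNB, which often opposes the growth-promoting action of JUN, was at 164, 168 and 162 in the control cultures and at 227, 217 and 232 after butyrate. Its log2 fold change reached 0.45 ± 0.04 (SE), at a Benjamini-Hochberg adjusted p of 3.1e-05 by limma. JUN, the founding member of the family, was at 89.5, 78.7 and 76.3 in control and at 111, 117 and 109 after butyrate. Control culture 1 was the highest control for JUN, and it was still below every butyrate culture. For JUN the log2 fold change reached 0.46 ± 0.07 (SE), at a Benjamini-Hochberg adjusted p of 4.0e-04 by limma. JUN and JUNB thus moved by nearly the same amount, and 65.7% and 65.2% of all tested genes had a lower log2 fold change than they did. For JUND this share was 76.6%.

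The FOS genes did not move together. FOS, the prototype of the family, was at an FPKM of 51.1, 55.8 and 56.0 in control cultures 1 to 3 and at 52.8, 57.0 and 74.1 in butyrate cultures 1 to 3. The groups overlapped, and butyrate culture 3 stood above the other 5 cultures. The means were 54.3 ± 2.81 and 61.3 ± 11.3 (SD, n = 3), and the log2 fold change of 0.16 ± 0.12 (SE) did not pass the test, at a Benjamini-Hochberg adjusted p of 0.27 by limma.

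FOSL1, which encodes FRA1, a FOS protein without the strong activation domain of FOS, went the other way. Its FPKM was 9.76, 11.2 and 8.62 in control and 1.51, 1.20 and 1.07 after butyrate, and no culture came near the other group. The means were 9.86 ± 1.29 and 1.26 ± 0.225 (SD, n = 3), a level 7.83-fold lower after butyrate. The log2 fold change reached -2.88 ± 0.17 (SE), at a Benjamini-Hochberg adjusted p of 2.0e-06 by limma. Only 1.22% of the tested genes had a lower log2 fold change. The Bonferroni-adjusted p of FOSL1 from limma was 0.00166. It was 0.054 without butyrate culture 2 and 0.0791 with no mean-variance trend in limma, so the call by the study's thresholds was lost in both, and the log2 fold change without that culture was -2.85.

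FOSB, expressed at low levels, was at 0.310, 0.142 and 0.316 in control and at 0.0457, 0.170 and 0.137 after butyrate. Control culture 2 fell among the butyrate values, and the log2 fold change of -0.71 ± 0.44 (SE) did not pass the test, at a Benjamini-Hochberg adjusted p of 0.198 by limma. After quantile normalization of the cultures FOSB was called lower, with a change of -1.63 and an adjusted p of 0.00734 by limma. FOSL2, the remaining gene of the family and not among the 10, had an FPKM between 37.4 and 41.7 in control and between 49.2 and 55.8 after butyrate. The tables report a failed estimate for it in control culture 2, so it was left out of the fit. With that value kept, its log2 fold change reached 0.42 ± 0.07 (SE), at a Benjamini-Hochberg adjusted p of 8.5e-04 by limma.

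**Figure D2:**
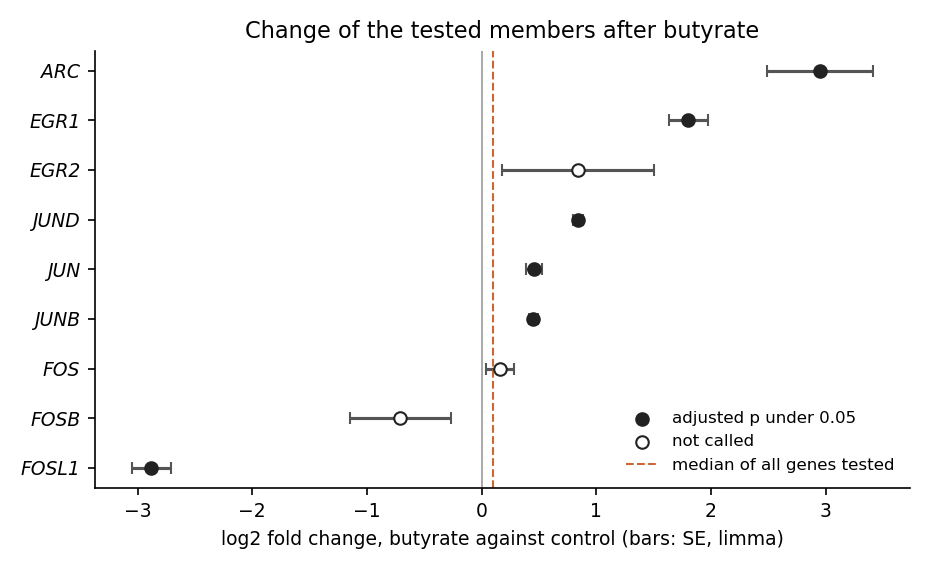
Log2 fold change of butyrate against control for the 9 tested members, with standard errors from limma; filled points have a Benjamini-Hochberg adjusted p under 0.05, and the dashed line is the median of all tested genes, 0.10. ARC has the largest rise at 2.95 and FOSL1 the largest fall at -2.88, with FOS close to the dashed line.

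Among FOS, FOSB and FOSL1, the mix of transcripts shifted while their total did not separate the groups. FPKM is already divided by length, so the levels of FOS, FOSB and FOSL1 can be summed. The sum was 61.1, 67.2 and 65.0 in control and 54.3, 58.4 and 75.3 after butyrate, and these values overlap. FOSL1 made up 13.3% to 16.7% of the sum in the controls and 2.78%, 2.05% and 1.42% in butyrate cultures 1 to 3. FOS made up 84.3 ± 1.69% (SD, n = 3) in control and 97.7 ± 0.651% after butyrate. The shares of FOS and of FOSL1 did not overlap between the groups. FOSL2 is outside this sum and these shares. Its level, 39.4 ± 2.18 in control and 52.6 ± 3.32 after butyrate (SD, n = 3), was near that of FOS, and its groups did not overlap. The overlap of the sums and the separation of the shares therefore cannot be extended to the family with FOSL2.

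The JUN family kept its order but its total rose, from 571 ± 3.51 (SD, n = 3) in control to 918 ± 14.2 after butyrate. JUND took 56.9 ± 1.11% of the control sum and 63.2 ± 0.808% of the butyrate sum. The share of JUNB went from 28.9 ± 0.551% to 24.6 ± 1.10% and that of JUN from 14.3 ± 1.17% to 12.2 ± 0.404%. In each culture the JUN genes together exceeded the sum of FOS, FOSB and FOSL1 many times over.

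**Figure D3:**
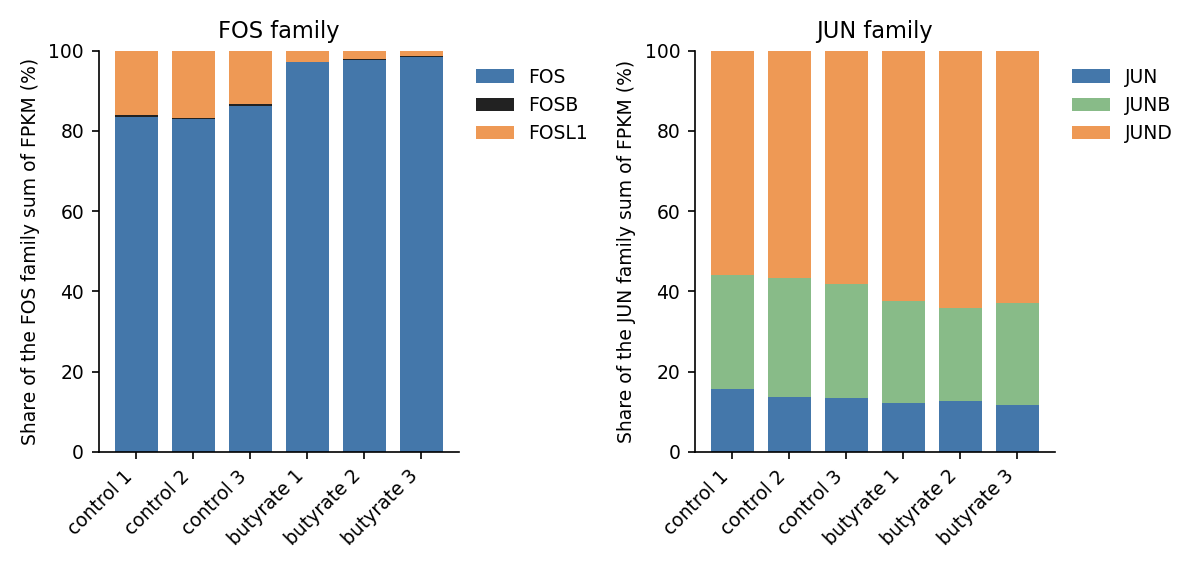
Share of each gene in the summed FPKM of the FOS family (FOS, FOSB and FOSL1) and of the JUN family (JUN, JUNB and JUND), in percent, with a stacked bar for each of the 6 cultures. The FOSL1 segment shrinks from between 13.3% and 16.7% in control to between 1.42% and 2.78% after butyrate, and JUND is the largest JUN segment in every culture.

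EGR1, the widely expressed EGR gene also known as ZIF268, rose in all butyrate cultures. Its FPKM was 10.7, 10.5 and 16.4 in control and 38.0, 42.9 and 48.5 after butyrate. Control culture 3 stood above the other controls and well below the lowest butyrate culture. The means were 12.5 ± 3.33 and 43.1 ± 5.26 (SD, n = 3), a level 3.45-fold higher after butyrate, and the log2 fold change reached 1.80 ± 0.17 (SE), at a Benjamini-Hochberg adjusted p of 3.0e-05 by limma. Without control culture 3 the log2 fold change was 2.01, and EGR1 then also passed the study's thresholds (limma, Bonferroni-adjusted p = 0.00346, against 0.0644 with all cultures). Of all tested genes, 90.7% had a lower log2 fold change than EGR1.

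The other EGR genes were hardly detected. EGR2, known for its part in myelination, was listed at 0, 0.0747 and 0.0384 in control and at 0, 0.438 and 0.155 after butyrate. Butyrate culture 2 carried most of the signal while butyrate culture 1 was at 0, and the log2 fold change of 0.84 ± 0.66 (SE) did not pass the test, at a Benjamini-Hochberg adjusted p of 0.308 by limma. EGR3, needed for muscle spindles, was listed at 0 in the 3 control cultures and in butyrate culture 2, and at 0.210 and 0.212 in butyrate cultures 1 and 3. EGR1 supplied at least 99.0% of the summed EGR1, EGR2 and EGR3 level in every culture. EGR4, the remaining EGR gene, had group means of 0.0428 and 0.0401 and was too low to be tested.

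ARC is found at chr14:2892604-2895980, in positions of the UMD3.1 build that the submitters' processing notes name. Among the controls its FPKM was 0 in culture 2, 0.109 in culture 3 and 0.164 in culture 1. After butyrate it was 0.887 in culture 1, 1.19 in culture 2 and 1.92 in culture 3. The groups did not overlap, although the lower bound that the files give for butyrate culture 1, 0.320, was under the upper bounds of control cultures 1 and 3, 0.466 and 0.464. The means were 0.0910 ± 0.0834 and 1.33 ± 0.532 (SD, n = 3). The log2 fold change reached 2.95 ± 0.46 (SE), at a Benjamini-Hochberg adjusted p of 6.0e-04 by limma. Over the settings tried with a test of ARC, the change ranged from 1.07 with a pseudocount of 1 to 4.43 with a pseudocount of 0.01, and its adjusted p passed in each.

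Low-level genes differed from the rest in direction. Among the 3734 tested genes with a mean FPKM under 1 the median log2 fold change was 0.66, and 30.9% were called higher and 5.30% lower. For the 12079 genes at or above that level the median was 0.00, and 33.0% were called higher and 32.2% lower. Of the genes with a mean FPKM under 1, 96.1% had a smaller log2 fold change than ARC. ARC passed the filter mainly through its butyrate values and had been singled out by the study from these libraries. Its high place was thus favoured beforehand and is no separate evidence of a rise.

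The number of fragments behind each value differed greatly among the members. The files hold no counts, but if the deposited interval reflects counting error alone, its width implies a fragment number. For ARC the interval implied 1.17, 0 and 0.381 fragments in control cultures 1 to 3 and 9.80, 16.8 and 20.1 in butyrate cultures 1 to 3. The control level of ARC therefore rested on a summed 1.55 fragments, and the size of its fold change is poorly fixed. EGR2 had 1.34 implied fragments over the controls and 13.9 over the butyrate cultures, of which 11.2 were in butyrate culture 2. EGR3 had 2.11 over all cultures. In contrast, FOSL1 had 452 over the controls and 61.7 over the butyrate cultures, EGR1 had 506 and 1930, and each JUN gene and FOS had at least 851 in every culture. These numbers are approximate, cover counting error only and can be too low, since their total per culture is below the read totals stated by the study.

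**Figure D4:**
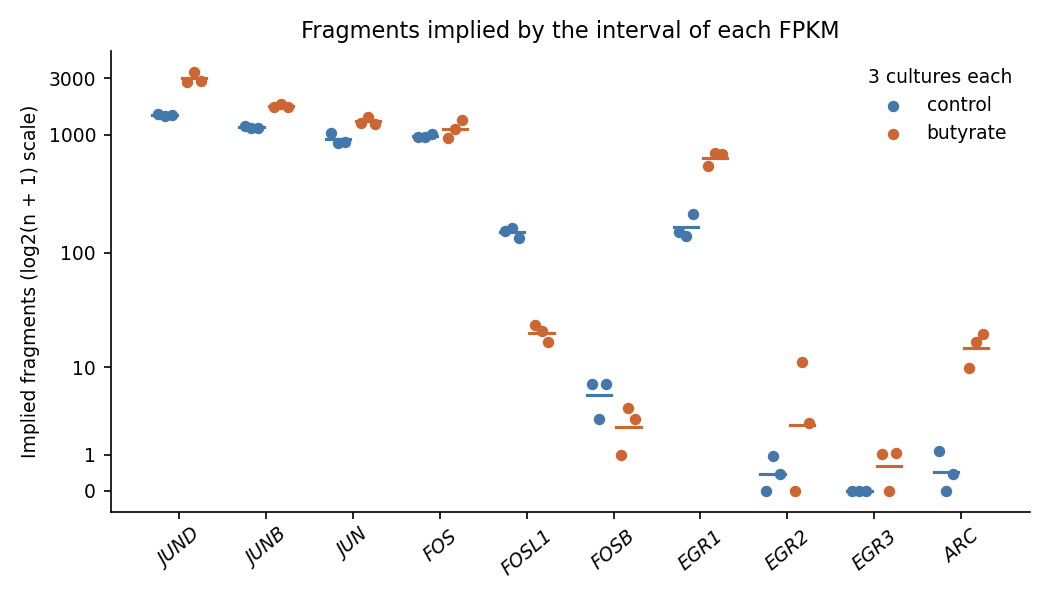
Number of fragments implied by the width of the deposited interval of each FPKM, for each member in 3 control and 3 butyrate cultures, on a log2(n + 1) axis with ticks in fragments; short lines are group means on that scale. The control values of ARC lie between 0 and 1.17 fragments and the butyrate values between 9.80 and 20.1, whereas FOS and the JUN genes have between 851 and 3400.

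ARC rose more than each of the 8 other tested members on the log2(FPKM + 0.1) scale. The difference between ARC and a second gene was taken within each culture and compared between the groups, for all 9 other members. It grew by 1.15 with a standard error of 0.46 against EGR1, by 2.12 ± 0.51 (SE) against JUND, by 2.49 ± 0.50 against JUN and by 2.50 ± 0.52 against JUNB. Against FOS it grew by 2.79 ± 0.48 (SE) and against FOSL1 by 5.83 ± 0.67. For 8 of the 9 genes the butyrate differences were all above the control differences, and for EGR2 they overlapped. The exact permutation test gave p = 0.1 for those 8 genes and p = 0.2 for EGR2, with Benjamini-Hochberg adjusted values of 0.112 and 0.2 over the 9 comparisons, and 0.1 is the smallest p the design allows. The order of ARC and EGR1 was not fixed, because with a pseudocount of 1 the difference between them was -0.65. With that pseudocount the differences against JUND, JUN, JUNB and FOS were 0.24, 0.62, 0.63 and 0.92. With a pseudocount of 0.01 they were 3.59, 3.97, 3.98 and 4.27, so their size depended largely on the pseudocount. ARC and FOSL1 moved in opposite directions, and ARC and FOS could not be said to rise together, since FOS was not called. Whether ARC followed any member from culture to culture was not tested, because 3 cultures a group are too few for a correlation within a group.

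The rank order of the members by FPKM was JUND, JUNB, JUN, FOS, EGR1 and FOSL1 in control, followed by FOSB, ARC, EGR2 and EGR3. EGR1 and FOSL1 overlapped between cultures in control, as did each neighbouring pair from FOSB downwards, so their order is not resolved. After butyrate the first 5 genes kept their places, and the cultures of neighbouring genes among them did not overlap. ARC and FOSL1 followed at 1.33 and 1.26 with overlapping cultures. EGR2, EGR3 and FOSB closed the order, each pair of neighbours overlapping. In control, 97.5% of the tested genes had a lower mean FPKM than JUND and 6.98% had a lower one than ARC. After butyrate these shares were 99.0% and 26.5%.

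Likeness to ARC was taken as the mean absolute difference in log2(FPKM + 0.1) over the 6 cultures. It depends mostly on level, so an abundant member could not come near ARC whatever its change, and it does not bear on whether they moved together. The nearest of 15812 genes were STRA8, a gene of germ cell entry into meiosis, at 0.269, SFTPC, a lung surfactant protein gene, at 0.285, the uncharacterised LOC104973150 at 0.307, PLCXD1 at 0.317 and the kinase gene NIM1K at 0.319. The FPKM of STRA8 went from 0.0822 ± 0.0712 to 1.78 ± 0.507 (SD, n = 3), and that of SFTPC from 0.0609 ± 0.105 to 1.38 ± 0.396. All 5 were at 0 in control culture 2, as ARC was. That shared 0 and their rise are favoured by the choice itself, which used the same 6 cultures. Among the members the nearest were EGR2 at 1.73 and FOSB at 1.83, which ranked 3658 and 4090 among the genes, and JUND was the farthest at 9.79.

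The members lie on 8 chromosomes. JUND, JUNB and EGR1 are all on chromosome 7, but far apart. JUND spans 4859846 to 4861601, JUNB 13851114 to 13852933 and EGR1 51438972 to 51441815. FOS is at chr10:86883739-86887170, FOSL1 at chr29:44672788-44679319, FOSB at chr18:53501995-53508418 and JUN at chr3:87841042-87843089. EGR2 is at chr28:19011624-19018277 and EGR3 at chr8:70502508-70506301. No other listed gene overlapped a member. Of the 20 nearest tested genes on either side of the members, 12 were called higher, 3 lower and 5 neither, beside the 32.5% and 25.9% of all tested genes. Next to ARC, the transposase-derived JRK lies 16.1 kb away and fell from 7.15 ± 1.12 to 4.33 ± 0.437 (SD, n = 3, log2 fold change -0.70, limma, Benjamini-Hochberg adjusted p = 0.0032). TSNARE1, a SNARE domain gene 158.7 kb to the other side, rose from 1.57 ± 0.514 to 3.67 ± 1.59 (log2 fold change 1.13, limma, Benjamini-Hochberg adjusted p = 0.0248). FOSL1 and its neighbour CCDC85B, 0.1 kb apart, moved in opposite directions, and CCDC85B went from 28.8 ± 4.04 to 56.1 ± 5.71. On chromosome 10, JDP2, a repressive partner of JUN proteins 119.2 kb from FOS, rose from 6.48 ± 0.359 to 12.3 ± 1.92 (limma, Benjamini-Hochberg adjusted p = 2.9e-04). REEP2, 11.8 kb from EGR1, was at 0.0450 ± 0.0390 in control and at 0.473 ± 0.0942 after butyrate.

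Other early response genes moved in both directions. Of 61 such genes listed, 56 were tested, of which 24 (42.9%) were called higher, 16 (28.6%) lower and 16 neither, beside 32.5% and 25.9% of all tested genes, and none passed the study's thresholds. Their median log2 fold change was 0.12, close to the 0.10 of all tested genes. The largest called changes were those of NR4A3, an orphan nuclear receptor gene, at -2.34, the neuropeptide precursor gene VGF at 2.09, the kinase gene SGK1 at 1.51 and NFKBIZ, an atypical inhibitor of NF-kB, at 1.45. SGK1 stood at 21.4 ± 1.70 FPKM in control and 61.1 ± 7.59 with butyrate (SD, n = 3), and NR4A3 at 0.568 ± 0.136 and 0.0344 ± 0.0452. Among classical early genes chosen after their values were seen, IER2, IER3 and MYC fell, with log2 fold changes of -0.91, -0.98 and -0.71, whereas ATF3 rose by 0.51. DUSP1, a phosphatase gene that ends MAP kinase signals, was at 386 in control and 397 after butyrate and was not called, with a log2 fold change of 0.04 (limma, Benjamini-Hochberg adjusted p = 0.508). NR4A1 was likewise not called, at 2.78 and 2.72.

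Of 33 listed regulators upstream of the members, 32 were tested, of which 9 (28.1%) were called higher, 8 (25.0%) lower and 15 neither. These shares were near the 32.5% and 25.9% of all tested genes, and the median log2 fold change was 0.03. SRF, which binds the CArG element shown above, went from 23.1 ± 1.03 down to 12.2 ± 1.66 (SD, n = 3), a log2 change of -0.93 (limma, Benjamini-Hochberg adjusted p = 9.3e-05). The kinase gene RPS6KA5, whose product MSK1 phosphorylates CREB and histone H3 at early genes, went from 0.267 ± 0.0430 to 1.28 ± 0.199. CREM, a CREB relative, had a log2 fold change of 1.00 and MAPK10, the JNK gene typical of neurons, one of 1.84. MAPK10 was at 0.0208 ± 0.0189 in control and 0.353 ± 0.177 after butyrate, so it passed the filter on low values through the butyrate cultures. Of the 17 listed partners of the FOS, JUN and EGR proteins, 14 were tested, with 5 (35.7%) called higher and 4 (28.6%) lower, again near the shares of all tested genes, and a median log2 fold change of -0.02. MAF, JDP2 and BATF3, which can join bZIP dimers, had log2 fold changes of 0.99, 0.91 and 0.75. MAFG and MAFK, small MAF genes of the same class named after their values were seen, fell, with log2 fold changes of -0.40 and -0.42. NAB1, a corepressor that binds EGR proteins, rose from 8.31 ± 0.315 to 15.3 ± 1.38.

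The genes around ARC's synaptic role covered a wide range of levels, from AP2M1, a clathrin adaptor gene at 280 in control, to receptor genes at 0. Of 28 listed genes for ARC partners and postsynaptic proteins, 19 were tested, of which 11 (57.9%) were called higher and 2 (10.5%) lower, beside 32.5% and 25.9% of all tested genes. The median log2 fold change was 0.50, beside 0.10 for all tested genes and 0.66 for those with a mean FPKM under 1. With a mean FPKM of at least 1 required, 7 were called higher, beside 4044 of all 12079 genes then tested. Fewer of the listed genes were tested with that filter, so 7 and 11 are not counts out of the same number. The lower count of 7 therefore does not mean a smaller share called higher, and 2 were still called lower. The largest called changes were those of NRGN at 2.02, the NMDA receptor gene GRIN1 at 1.99, the kinase gene CAMK2A at 1.92 and WASF1 at 1.69. GRIN1 stood at 0.338 ± 0.0247 FPKM in control and 1.64 ± 0.168 with butyrate (SD, n = 3), and CAMK2A at 0.219 ± 0.131 and 1.08 ± 0.324. WASF1, at 0.0815 ± 0.0706 and 0.45 ± 0.0535, passed the filter on low values through the butyrate cultures. SH3GL3, whose product endophilin 3 binds ARC, had a log2 fold change of 1.48. Of the AMPA receptor subunits on whose removal ARC acts, GRIA3 fell from 23.6 to 11.9, GRIA2 and GRIA4 were at 0 in every culture, and GRIA1 had group means of 0 and 0.0114. AP2M1, GRIA3 and SH3GL3 were named after their values were seen.

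Of 11 neuron markers, 4 were tested (TUBB3, RBFOX3, SNAP25 and SYN1), whereas the other 7 were too low to be tested. All 4 were called higher, beside 32.5% of all tested genes. The 11 markers had a summed FPKM of 119 to 123 in control, 260 to 283 after butyrate, and TUBB3, which many dividing cells in culture also express, made up most of the sum at 116 ± 3.89 and 257 ± 10.9 (SD, n = 3). RBFOX3, which encodes the neuronal nuclear protein NeuN, was at 0.0268 ± 0.0464 in control and 1.02 ± 0.161 after butyrate. It passed the filter on low values through the butyrate cultures, which favours a rise in it. Of the markers, 8 had a mean FPKM under 1, and GAP43 was at 0 in all cultures. The sum over 8 leukocyte and endothelial markers was 7.24 to 9.21, then 14.1 to 16.2, with PTPRC and CDH5 at 0 throughout. Of the 4 tested, 3 were called higher, as were 7 of the 8 tested fibroblast markers, and none was called lower in either list. Calls of a rise were thus not particular to the neuron markers. The part of these cell types in the values of ARC was not tested.

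**Figure D5:**
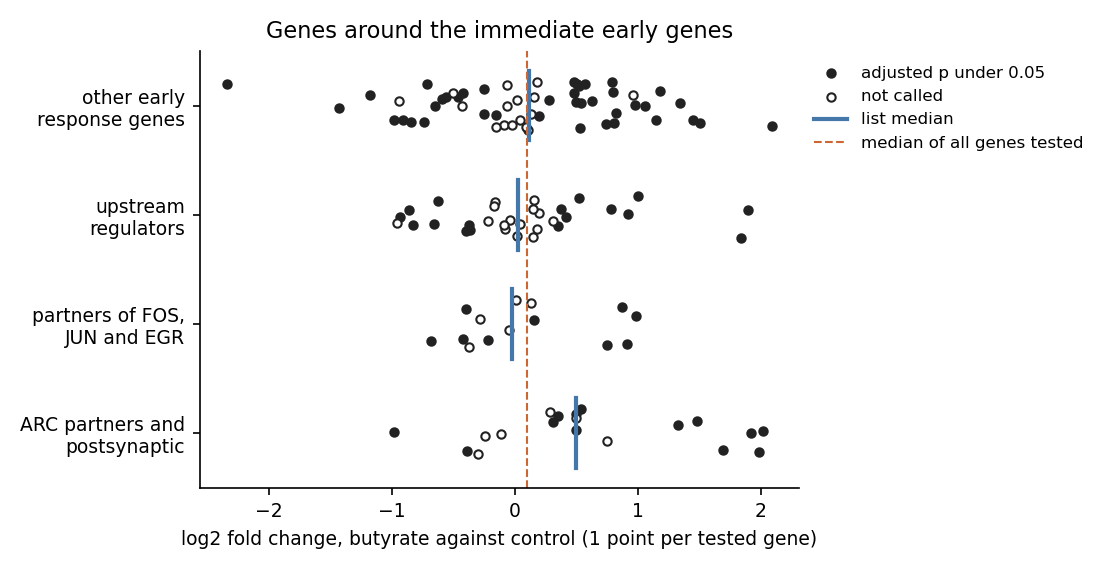
Log2 fold change of butyrate against control for each tested gene of 4 lists around the immediate early genes; filled points have a Benjamini-Hochberg adjusted p under 0.05 from limma, the solid bar is the list median and the dashed line the median of all tested genes, 0.10. The early response, upstream and partner lists spread to both sides of 0 with medians of 0.12, 0.03 and -0.02, while the median of the ARC list is 0.50.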

How the data were processed

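RNA was sequenced from 3 control and 3 butyrate cultures of REPC, grouped by the treatment label. Per the paper's methods and the submitters' processing notes, the authors trimmed reads with Trim Galore 0.4.1, aligned them with STAR, kept uniquely mapped reads and deposited FPKM values per gene from Cufflinks with an interval for each. The versions of STAR and Cufflinks are not given in the sources used here. FPKM is already divided by length and depth, and counts were not used here. The deposited intervals imply 5756609 to 6186809 fragments per culture, fewer than the uniquely mapped read pairs that the study's read totals give, so implied fragments are approximate.

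Rows were joined by position, 2 genes with a failed estimate (TNC and FOSL2) were removed, and log2(FPKM + 0.1) was fitted with limma 3.58.1 in R 4.3.3 (mean-variance trend, no block) wherever the mean FPKM reached 0.1. The fit was tested on simulated data. Implied fragments are 4 times the squared ratio of FPKM to the distance between it and its upper bound. Chromosomes follow the positions in the study's gene tables, on which 1139 of 1142 genes matched by name lay. Single differences used exact permutation tests in scipy 1.17.1. The members and lists were chosen with earlier results of these data known. Named are all members, the 4 largest called changes per list, the 5 genes nearest to ARC and, of the 20 genes beside members, JRK, TSNARE1, CCDC85B, JDP2 and REEP2. These 5 neighbours and AP2M1, ATF3, DUSP1, GRIA3, IER2, IER3, MAFG, MAFK, MYC, NR4A1 and SH3GL3 were picked after their values were seen, and FOSL2 and EGR4 as remaining family genes. CEBPB was not matched by name. Alternatives were other pseudocounts, filters and scalings, no trend, a replicate block and each culture left out. Keeping failed estimates was added after the data were seen. Promoter and protein sequences were not used here.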

Additional observations from a re-analysis of the deposited data

How the results depend on the processing

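The 6 called members kept their direction and call in every alternative in which they were tested, ARC not being tested with a mean FPKM of at least 1. FOSB was also called lower by quantile normalization (-1.63), which raised the members called lower to 2. Members past the study's thresholds numbered 0 without the trend and ranged from 0 (without butyrate replicate 2) to 2 (without control replicate 3). ARC minus EGR1 reversed to -0.65 with a pseudocount of 1. The differences between ARC and the other tested members shrank with that pseudocount and grew with a pseudocount of 0.01. Called partners of FOS, JUN and EGR that were lower numbered 2 after rescaling to TPM. Called ARC partners that were higher numbered 7 with a mean FPKM of at least 1, where fewer genes are tested, so this count does not mean a smaller share. The cause was not tested for the others. Rescaling to TPM moved the median of all genes from 0.10 to 0.24 and quantile normalization to -0.05; JUN, JUNB and JUND stayed above the median in both. Over all genes, 5144 were called higher and 4091 lower, against 6014 and 3389 after rescaling to TPM and 4284 and 4679 with quantile normalization, where lower calls were the more frequent.

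The replicate numbers are shared by label only: correlations of the deviations of same-numbered cultures were 0.0228, -0.00431 and 0.00177. With the replicate block the log2 fold change of ARC was 2.95 with a standard error of 0.45, 5 members were higher and 1 lower, and the block changed no call of a member at an adjusted p of 0.05. Few fragments limit ARC, FOSB, EGR2 and EGR3.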
